A study of Mus musculus with 16 samples.

Results

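Control tumours of 2 kinds, called Type 1 and Type 2, were compared by bulk RNA sequencing to describe which lineage, matrix and metabolic genes separate them. The comparison holds the 4 libraries titled Type 2 Control and the 5 titled Type 1 Control, chosen by their titles and matched to the expression table through the sample descriptions, which makes 9 of the 16 libraries of the series. The other 7 libraries come from tumours depleted of tumour-associated macrophages (TAM), 3 of Type 1 and 4 of Type 2, and they served as a separate set in which to read the same difference between kinds. The series, which compares TAM depleted with control tumours, concerns mouse models of glioblastoma (GBM), the most malignant astrocytic brain tumour, that are defined by the lineage from which the tumour starts. Every library is labelled as RNA of a transplanted mouse tumour. The alleles, cell of origin, host strain, sex and age of each group, what the control animals received, how TAM were depleted, and whether any tumours were pooled or share a donor line could not be read from the labels. The descriptions of Type 2 Control 4 (NG2Con) and Type 2 TAM depleted 4 (UN2) are unlike the numeric ones of the other libraries. What they mean is not stated. In the literature on such models, Type 1 tumours are those begun in neural stem and progenitor cells and Type 2 tumours those begun in oligodendrocyte precursors.

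Oligodendrocyte precursors are dividing glial cells that depend on the transcription factors Olig2 and Sox10, carry the receptor Pdgfra and the proteoglycan Cspg4 (NG2), and mature into the myelinating cells of the brain. Neural stem cells express Nes, Sox2, Sox9 and Gfap and give rise to neuroblasts, which switch on proneural basic helix-loop-helix (bHLH) factors and then Dcx, Sox11 and the neuronal genes. Brain matrix outside vessels is rich in hyaluronan and in proteoglycans such as aggrecan, whereas collagens and laminins lie mostly in the basement membranes of vessels. Mycn belongs to the Myc family of bHLH transcription factors and drives growth of neural progenitors; its locus is amplified in some neuroblastomas and gliomas.

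The libraries held between 4.21 and 18.3 M reads, 6.32 ± 0.74 M in Type 1 Control (SD, n = 5) and 9.74 ± 4.98 M in Type 2 Control (SD, n = 4). The libraries stood apart in how many reads fell in 974 olfactory and vomeronasal receptor genes, which a brain tumour is not known to use. These receptors took 2666 to 8480 reads per M in 9 libraries, called high-background here, and 95.0 to 779 in the other 7. The predicted gene Gm10800 moved with them and took 13.8 to 58.2% of reads in the high-background control libraries, the most in Type 2 Control 1, against 1.32 and 1.08% in Type 2 Control 2 and 4. All 5 Type 1 Control libraries and Type 2 Control 1 and 3 were high-background, and Type 2 Control 2 and 4 were not. The fold change within the 7 high-background control libraries is therefore given beside the main results. Its adjusted p values rest on Type 2 Control 1 and 3 alone for that kind and on a spread estimated from every library of the series. Whether the samples of a group were separate animals is not labelled, so the tests weigh differences against the spread among libraries, which may be technical.

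Type 2 Control tumours carried more transcript of oligodendrocyte precursor genes and of a broad set of matrix genes, and less of Mycn, of its chromosomal neighbours and of neuroblast and neuronal genes. Of 26463 genes tested with limma, 819 (3.09%) differed at an adjusted p under 0.05, 603 (2.28%) higher and 216 (0.816%) lower in Type 2. Counts of list members that passed are to be read beside these shares. In 1840 genes (6.95%) the libraries of the kinds did not overlap, 1330 (5.03%) higher and 510 (1.93%) lower in Type 2. All 819 kept their sign within the high-background libraries. These are part of the same control libraries, so the sign could hardly change and this is no independent check. There 1017 genes (3.84%) passed and 484 were shared with the 819. The median log2 fold change over all genes was -0.23, against which the medians below are to be read, and it was 0.13 within the high-background libraries and 0.11 in the depleted tumours, the references for medians given there. The share of calls that were higher in Type 2 was 73.6%, and it was 55.3% with upper quartile scaling, 59.8% with quantile normalization, 38.5% with limma-voom, 39.3% with the background set as a block and 35.2% within the high-background libraries. Without Type 1 Control 4, 510 genes passed, and without Type 2 Control 3, 524. In bulk tissue, fewer cells of a type and less RNA per cell cannot be told apart.

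The lowest gene in Type 2 relative to Type 1 was Mycn (chr12:12936093-12941914, GRCm38, GENCODE vM21). It stood at 29296, 19479, 5923, 19927 and 46869 normalized counts in Type 1 Control 1 to 5 and at 71.5, 43.4, 41.8 and 49.9 in Type 2 Control 1 to 4. Every Type 1 library lay far above every Type 2 library, with Type 1 Control 3 the lowest of its group. The means were 24299 ± 15120 (SD, n = 5) and 51.7 ± 13.7 (SD, n = 4), a ratio of 470. On the log2(normalized count + 1) scale, used for all fold changes here, the difference was -8.60 (SE 0.54, adjusted p = 3.73e-07), and -8.48 within the high-background libraries.

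Mycn was not alone at its locus. A run of 24 consecutive tested genes on chromosome 12, from 12262134 to 13627646 (1366 kb), lay lower in Type 2 without overlap, and all 24 passed, with log2 fold changes from -8.60 to -5.22. The run was chosen after its values were seen. It was drawn from the tested genes within 3000 kb of Mycn as those with a log2 fold change of -4 or lower, so no member could lie above that limit. Its named coding genes are Cyria, a regulator of Rac1, Mycn, Ddx1, an RNA helicase, and Nbas, a protein of vesicle transport and RNA decay. The lincRNA Platr19 (chr12:12787985-12794285) lies among them at -7.74 (SE 1.18, adjusted p = 0.00119), and 19 of the 24 are predicted genes, pseudogenes or clone-named transcripts. The library kit does not mark strand, so reads of overlapping or antisense models in the run cannot be told apart.

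Ddx1 (chr12:13216973-13249213) had 192168, 139970, 39916, 95803 and 321016 normalized counts in Type 1 Control 1 to 5 against 933, 1230, 438 and 661 in Type 2 Control 1 to 4, a ratio of means of 193. Nbas (chr12:13269133-13583811) had 50560, 49490, 14065, 34021 and 133320 against 615, 694, 341 and 652, a ratio of 97.8. Cyria (chr12:12262134-12380965), at the left end of the run, had 14138, 19250, 4286, 12713 and 38628 against 336, 461, 242 and 549, differing by -5.22 on the log2 scale (SE 0.59, adjusted p = 0.000116). For all these genes Type 1 Control 5 was the highest and Type 1 Control 3 the lowest Type 1 library, as for Mycn, and no library of Type 2 reached the Type 1 range. The run took 3.96, 3.01, 0.985, 2.07 and 5.56% of all normalized counts in Type 1 Control 1 to 5 and 0.0149, 0.0303, 0.0203 and 0.0271% in Type 2 Control 1 to 4. With Gm10800 left out of the total, a choice made after seeing the data, these shares were 4.75, 4.17, 1.30, 2.93 and 8.56% against 0.0356, 0.0307, 0.0236 and 0.0274%, and Type 2 Control 1 went from the lowest to the highest of its group.

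The edges of the run were resolved only to the nearest tested genes. To the left, Gm4294 ends at 12023658 and had a log2 fold change of -0.47. To the right, Gm48482 starts at 14128116 and had one of -1.26. Both had low counts, with means of 16.7 and 11.4 for Gm4294 and 30.2 and 20.3 for Gm48482 in Type 1 and Type 2 Control. Over the 31 other genes within 3000 kb of Mycn the median was -1.63 (range -2.57 to -0.07). Gm4294 was at -0.70 and Gm48482 at 0.04 within the high-background libraries, and the median of the 31 was -0.12 (range -3.44 to 0.39). Outside the run 12 of the genes tested had a log2 fold change of -4 or lower, the limit that defines the run. Copy number was not measured in this series. All 24 genes passed under every alternative except limma-voom, in which 18 did.

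**Figure D1:**
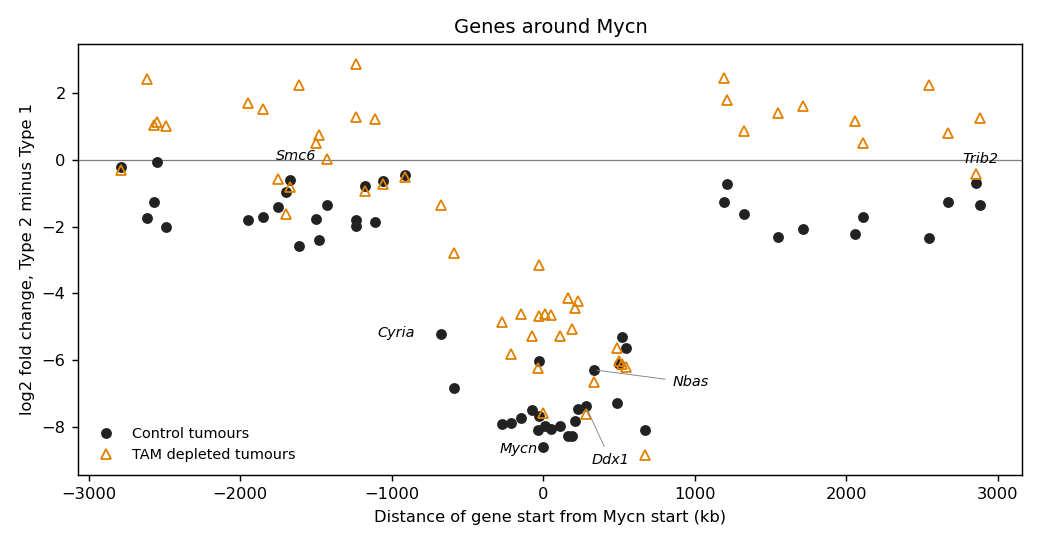
Log2 fold change, Type 2 minus Type 1 (vertical axis), of the tested genes within 3000 kb of Mycn against the distance of each gene's start from that of Mycn (horizontal axis, kb), for control (black circles) and TAM depleted tumours (orange triangles). The 24 genes of the run lie between -8.60 and -5.22 in the controls, and the 31 other genes between -2.57 and -0.07.

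The naming rule, given in full at the end, takes only genes whose libraries do not overlap between kinds. Of the 12 genes with the largest falls under this rule, the 7 outside the run are genes of neuronal differentiation or of retinoid and growth factor binding. Of these, 4 encode proneural or neuronal bHLH factors: Nhlh1, Neurod1, Neurod2 and Bhlhe22. Insm1, a zinc finger factor of neuroendocrine and neuronal progenitors, Igfbpl1, an insulin-like growth factor binding protein family member, and Crabp1, the cytosolic retinoic acid binding protein, were the other 3.

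Insm1 (chr2:146221921-146225020) stood at 1499, 1056, 377, 974 and 2559 normalized counts in Type 1 Control 1 to 5 and 17.9, 68.4, 13.4 and 16.4 in Type 2 Control 1 to 4, -5.50 on the log2 scale (SE 0.73, adjusted p = 0.000431). Crabp1 (chr9:54764748-54773110) stood at 1208, 1285, 127, 829 and 4197 against 17.9, 6.68, 19.6 and 7.37 (-6.21, SE 0.87, adjusted p = 0.000676). Igfbpl1 (chr4:45809468-45826923) stood at 729, 630, 174, 1238 and 1330 against 10.7, 17.3, 43.6 and 19.3 (-4.99, SE 0.66, adjusted p = 0.000431). In each of these, Type 1 Control 3 was the lowest Type 1 library and, as the naming rule required, lay above every Type 2 library. The values of Type 2 Control 1 rested on 5 reads for Insm1, 5 for Crabp1 and 3 for Igfbpl1.

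Among the bHLH genes, Nhlh1 (chr1:172052292-172057573) had 481, 896, 105, 1001 and 2248 normalized counts in Type 1 Control 1 to 5 and 32.2, 4.45, 32.1 and 7.93 in Type 2 Control 1 to 4 (-5.38, SE 0.96, adjusted p = 0.00406). Neurod1 (chr2:79452521-79456751) had 789, 758, 256, 1116 and 1756 against 107, 6.68, 8.9 and 18.7 (-5.29, SE 0.80, adjusted p = 0.00116). Neurod2 (chr11:98325415-98329648), which acts in maturing cortical neurons, had 914, 280, 214, 1227 and 796 against 28.6, 3.34, 44.5 and 27.8 (-4.78, SE 0.80, adjusted p = 0.00242). Bhlhe22 (chr3:18054174-18057517) had 543, 293, 119, 920 and 870 against 60.8, 8.9, 21.4 and 16.4 (-4.29, SE 0.75, adjusted p = 0.00366). The groups did not overlap in any of the 4, as the naming rule required, and again Type 1 Control 3 was the lowest of Type 1.

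bHLH proteins bind E-boxes, and the promoters of the leading genes were therefore searched for the E-boxes CAGCTG and CAGATG on both strands, the second read as CATCTG on the other strand. RefSeq held the 250 bases before the start of 14 of the 24 leading genes. The starts here are those of RefSeq, and the Mycn and Neurod2 windows reach into the GENCODE positions given above for these genes. An E-box was present in 2 of 8 matched falls and 2 of 6 matched rises, beside 25.5% of all 32851 promoters of this length. The share among leading genes is that of 4 promoters only and is a description of the letters. The promoters of Mycn, of both matched bHLH genes with an E-box, and of Gjc3, the leading rise, are printed 5′ to 3′ from RefSeq GRCm38.p6, all on the minus strand, with E-boxes in capitals. Their positions are chr12:12941837-12942086 for Mycn, chr11:98329646-98329895 for Neurod2, chr1:172057597-172057846 for Nhlh1 and chr5:137963099-137963348 for Gjc3.
Mycn: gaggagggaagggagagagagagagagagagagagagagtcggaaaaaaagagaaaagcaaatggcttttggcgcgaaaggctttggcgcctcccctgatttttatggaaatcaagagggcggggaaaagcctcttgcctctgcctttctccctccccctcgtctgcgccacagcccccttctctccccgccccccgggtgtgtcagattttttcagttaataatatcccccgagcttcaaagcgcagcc
Neurod2: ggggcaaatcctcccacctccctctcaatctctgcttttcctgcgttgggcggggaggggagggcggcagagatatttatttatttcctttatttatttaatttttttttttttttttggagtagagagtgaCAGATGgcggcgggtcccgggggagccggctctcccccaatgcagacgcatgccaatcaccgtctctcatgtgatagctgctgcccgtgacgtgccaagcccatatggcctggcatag
Nhlh1: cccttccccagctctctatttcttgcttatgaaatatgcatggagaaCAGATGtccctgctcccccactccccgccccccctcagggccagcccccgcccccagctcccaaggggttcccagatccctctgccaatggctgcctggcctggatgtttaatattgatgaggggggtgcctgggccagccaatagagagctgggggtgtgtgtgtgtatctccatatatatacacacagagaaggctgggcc
Gjc3: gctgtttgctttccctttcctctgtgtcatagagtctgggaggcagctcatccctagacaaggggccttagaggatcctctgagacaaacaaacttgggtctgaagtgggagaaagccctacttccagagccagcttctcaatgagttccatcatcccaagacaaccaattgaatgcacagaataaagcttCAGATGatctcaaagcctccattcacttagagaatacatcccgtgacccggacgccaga
The E-box begins 118 bases before the start in Neurod2, 203 in Nhlh1 and 59 in Gjc3, and the Mycn window holds none of the searched letters.

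The 12 leading rises in Type 2 were led by oligodendrocyte lineage genes and matrix genes. Gjc3, which encodes the glial gap junction connexin 29, Sox10, a transcription factor of the oligodendrocyte lineage, Erbb3, a neuregulin receptor, and Gpr17, a receptor of committed precursors, belong to the first kind. Acan (aggrecan), Hapln1, the link protein that ties aggrecan to hyaluronan, and the cartilage-type collagens Col11a1 and Col2a1 belong to the second. Sema3d, a secreted guidance cue, Susd5, the complement gene C4b and the nuclear long non-coding RNA Neat1 complete the 12. Whether Gjc3, Sox10, Erbb3 and Gpr17 mark the oligodendrocyte lineage alone was not tested.

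Gjc3 (chr5:137953461-137963098) stood at 334, 212, 147, 121 and 70.4 normalized counts in Type 1 Control 1 to 5 and at 4032, 3478, 6989 and 5033 in Type 2 Control 1 to 4. Its means were 177 ± 102 (SD, n = 5) and 4883 ± 1544 (SD, n = 4), a ratio of 27.6 (4.92, SE 0.38, adjusted p = 6.02e-06). Sox10 (chr15:79154908-79165240) stood at 274, 162, 196, 55.8 and 68.6 against 2988, 1727, 3367 and 4847, a ratio of 21.4 (4.56, SE 0.49, adjusted p = 9.31e-05). The lowest Type 2 library was above the highest Type 1 library by several-fold in both genes.

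Erbb3 (chr10:128567523-128589652) had 88.8, 154, 155, 75.4 and 57.7 normalized counts in Type 1 Control 1 to 5 and 865, 757, 2838 and 3298 in Type 2 Control 1 to 4 (3.99, SE 0.61, adjusted p = 0.00122). Sema3d (chr5:12383385-12588948) had 161, 169, 101, 127 and 70.4 against 1598, 2069, 5324 and 2096 (4.35, SE 0.36, adjusted p = 6.56e-06). Gpr17 had 433, 141, 171, 37.7 and 50.5 against 919, 8005, 980 and 1073 (3.85, SE 0.74, adjusted p = 0.00689), and Type 2 Control 2 stood far above the other 3 Type 2 libraries. Gpr17 was the only leading gene to lose its call under any of the 20 alternatives, within the high-background libraries (3.03, adjusted p = 0.0654).

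Acan (chr7:79053483-79115099) had 107, 63.2, 144, 133 and 106 normalized counts in Type 1 Control 1 to 5 and 990, 5753, 14857 and 860 in Type 2 Control 1 to 4 (4.76, SE 0.77, adjusted p = 0.00193). Hapln1 (chr13:89539796-89611652) had 60.9, 77.5, 75, 96.5 and 61.4 against 754, 2688, 6483 and 722 (4.57, SE 0.74, adjusted p = 0.00193). These partner genes had the same order among Type 2 libraries, with Type 2 Control 3 the highest, Type 2 Control 2 next, and Type 2 Control 1 and 4 lower and close to each other. Col11a1 (chr3:114030540-114220718) had 379, 448, 289, 415 and 480 against 1737, 10488, 27611 and 8521 (4.35, SE 0.59, adjusted p = 0.000514). Col2a1 (chr15:97975602-98004695) had 150, 139, 224, 124 and 141 against 1029, 3530, 7953 and 656 (3.77, SE 0.72, adjusted p = 0.00687). Type 1 libraries varied little in these 4 genes, and the spread lay within Type 2.

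Neat1 (chr19:5824708-5845478), the scaffold of nuclear paraspeckles, had 515, 646, 649, 344 and 285 normalized counts in Type 1 Control 1 to 5 and 6827, 11019, 13671 and 6805 in Type 2 Control 1 to 4 (4.30, SE 0.52, adjusted p = 0.000208). C4b (chr17:34728380-34743882) had 691, 439, 889, 345 and 256 against 3685, 11491, 10835 and 6128 (3.94, SE 0.54, adjusted p = 0.000525), and its reads may be shared with the near-identical C4a. Susd5 (chr9:114057140-114098728) had 64, 64.6, 38.7, 22.6 and 39.7 against 722, 845, 1712 and 178 (3.91, SE 0.73, adjusted p = 0.00566). By the naming rule no Type 2 library overlapped Type 1 in any of these, and Type 2 Control 4 was the lowest of its group for Susd5.

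**Figure D2:**
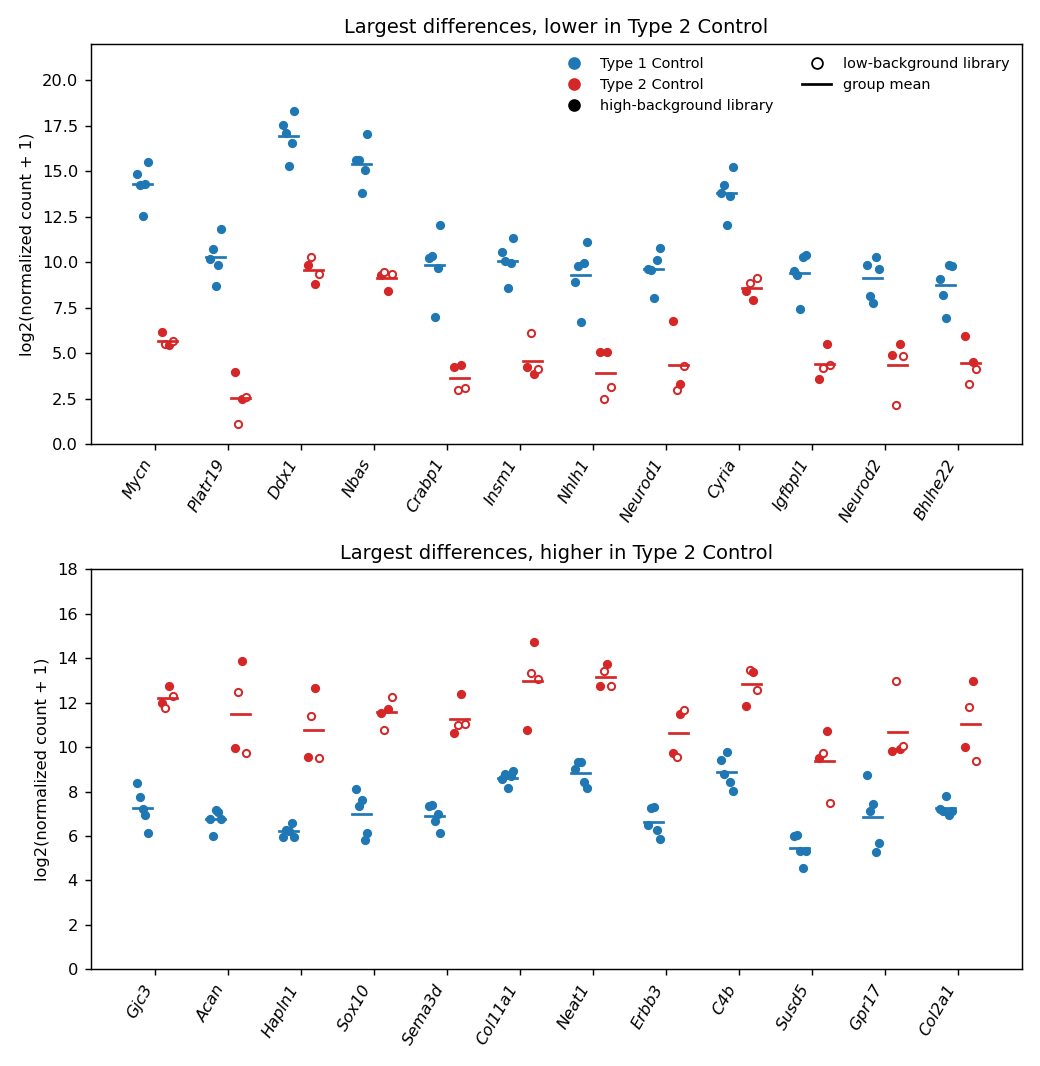
Expression as log2(normalized count + 1) (vertical axis) of the 24 leading genes in each control library, by tumour kind; each point is 1 library, filled where high-background and open where not, and bars are group means. The groups do not overlap in any of the 24 genes, because the rule that chose them required it.

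Among the lineage lists, the oligodendrocyte precursor genes were higher in Type 2. Of 18 members, 7 passed, all higher, none lower, and the list median was 1.95 against -0.23 over all genes, with all 18 members above 0. Cspg4, the NG2 proteoglycan, Xylt1, which starts proteoglycan sugar chains, Scrg1 and Pdgfra passed beside Sox10, Erbb3 and Gpr17. Within the high-background libraries 4 passed and the median was 1.42. The mean log2(normalized count + 1) of the list overlapped between kinds. It was 8.13 in Type 2 Control 1, below Type 1 Control 1 at 8.46, and 10.82, 9.97 and 9.99 in Type 2 Control 2 to 4. Leaving out each control library in turn gave 5 to 11 calls, 5 without Type 2 Control 3 and 11 without Type 2 Control 1.

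Cspg4 had 278, 234, 201, 112 and 159 normalized counts in Type 1 Control 1 to 5 and 683, 3853, 4593 and 2805 in Type 2 Control 1 to 4 (3.68, SE 0.56, adjusted p = 0.00116), without overlap. Pdgfra had 646, 396, 285, 167 and 173 against 536, 2195, 2851 and 2197 (2.49, SE 0.56, adjusted p = 0.019). Type 2 Control 1 was low for its group in Pdgfra and overlapped Type 1 Control 1. The Pdgfra call was lost within the high-background libraries (2.08, adjusted p = 0.103) and without any 1 of Type 1 Control 4 and 5 or Type 2 Control 2, 3 and 4.

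Olig2, which both the precursors and many gliomas express, did not pass. It had 799, 698, 586, 626 and 66.8 normalized counts in Type 1 Control 1 to 5 and 129, 6244, 1487 and 2142 in Type 2 Control 1 to 4 (1.58, SE 0.97, adjusted p = 0.518). Of the Type 2 libraries 3 lay above every Type 1 library, and the groups overlapped through Type 2 Control 1. In each kind 1 library, Type 1 Control 5 and Type 2 Control 1, stood far below the rest of its group. Olig1 also missed the threshold at 1.68 (adjusted p = 0.512).

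Later oligodendrocyte stages differed in fewer genes. Of 12 committed oligodendrocyte genes, 1 passed, Itpr2, a calcium release channel (1.75, SE 0.32, adjusted p = 0.00511), and the list median was 0.70. Of 11 mature oligodendrocyte genes, 3 passed, the myelin genes Cldn11 (2.80, adjusted p = 0.0366) and Cnp (2.11, adjusted p = 0.0291) and Ugt8a, which makes galactolipids (1.72, adjusted p = 0.0259), with a median of 0.53. None of these 3 passed within the high-background libraries, nor without Type 1 Control 4 or 5 or Type 2 Control 1 or 4. The main myelin gene Mbp (1.20) did not pass.

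Neuroblast and neuron genes were lower in Type 2. Of 15 neuroblast genes, 6 passed, all lower: Sox11, Elavl3, Stmn2, Dcx, Dlx1 and Cd24a, with a list median of -2.0. Of 15 neuron genes, 3 passed, all lower: Rbfox3 (NeuN), Syp and Snap25, with a median of -1.92 and all 15 members below 0. Of 16 synaptic vesicle genes, 3 passed, all lower, Syp again with Cplx1 (-3.17, adjusted p = 0.00419) and Rab3a (-2.47, adjusted p = 0.0102), and the median was -1.60. None of the 17 glutamate and GABA receptor genes passed by limma (median -0.99).

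Sox11, a factor of immature neurons, had 5202, 4328, 2443, 7633 and 7063 normalized counts in Type 1 Control 1 to 5 and 397, 1978, 189 and 598 in Type 2 Control 1 to 4 (-3.18, SE 0.65, adjusted p = 0.0109). Dcx, the microtubule protein of migrating neuroblasts, had 3056, 2226, 1434, 4925 and 2947 against 279, 2020, 75.7 and 124 (-3.31, SE 0.81, adjusted p = 0.0322). Sox11 did not overlap, but Dcx did, through Type 2 Control 2, which was the highest Type 2 library for both.

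Rbfox3, a splicing factor of mature neurons, had 974, 847, 1137, 1357 and 659 normalized counts in Type 1 Control 1 to 5 and 57.2, 58.4, 146 and 316 in Type 2 Control 1 to 4 (-3.10, SE 0.50, adjusted p = 0.002), without overlap. Snap25, part of the synaptic release machine, had 1162, 3204, 4643, 1452 and 830 against 207, 109, 96.2 and 1253 (-3.0, SE 0.71, adjusted p = 0.0274). Type 2 Control 4 overlapped the Type 1 range for Snap25. The summed normalized counts of the 15 neuron genes ran from 11203 to 40162 in Type 1 Control and from 3081 to 16202 in Type 2 Control, with no member at 0 in any control library; the part of normal brain tissue in these values was not tested.

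The neuronal calls depended on single libraries. Without Type 2 Control 3 no neuroblast gene passed by limma and 1 neuron gene did. Without Type 1 Control 2 or 4, 2 neuroblast genes passed in each case. Within the high-background libraries 5 neuroblast, 5 neuron and 6 synaptic vesicle genes passed, all lower. Of 20 forebrain regional transcription factors, those that passed were lower, among them Tbr1, of deep-layer cortical neurons (-2.37, adjusted p = 0.0376), a call lost within the high-background libraries and without any 1 control library other than Type 1 Control 5 and Type 2 Control 1.

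In the stem cell and the astrocyte list 1 gene each passed, beside 3.09% of all genes. The neural stem cell and radial glia list had a median of -0.13 over 18 genes and the astrocyte list of -0.03 over 15, or -0.24 and -0.58 within the high-background libraries. In those libraries Sox1 (-2.82) and Msi1 (-2.26) of the first list and Aqp4 (-2.26) and Ntsr2 (-2.78) of the second were lower. Among all control libraries, 1 gene of the first passed, Vim, the intermediate filament vimentin, with means of 2096 ± 762 in Type 1 Control (SD, n = 5) and 9772 ± 3258 in Type 2 Control (SD, n = 4; 2.24, adjusted p = 0.00444). Of the second, 1 passed, S100b, a calcium-binding protein that oligodendrocyte precursors also express (2.71, adjusted p = 0.00268). Gfap (-0.87, adjusted p = 0.54), Sox9 (0.17, adjusted p = 0.918), Nes (1.31, adjusted p = 0.382) and Egfr (-1.50, adjusted p = 0.359) did not pass.

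Egfr, the receptor that marks activated stem cells, had 1373, 1443, 1708, 1108 and 180 normalized counts in Type 1 Control 1 to 5 and 322, 1230, 172 and 169 in Type 2 Control 1 to 4. In each kind 1 library went against the others: Type 1 Control 5 was low and Type 2 Control 2 was high, and the groups overlapped. Type 1 Control 5 was also the lowest Type 1 library for Sox9, Nes, Gfap and Olig2. No HOX cluster gene (24 tested) and no ependymal or choroid plexus gene (10 tested) passed by limma. Of 9 neural crest and Schwann cell genes, only Mitf passed (1.60, adjusted p = 0.0214), a call lost within the high-background libraries. In that list 8 members lay above 0, and the median was 1.20, or 1.56 within the high-background libraries.

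**Figure D3:**
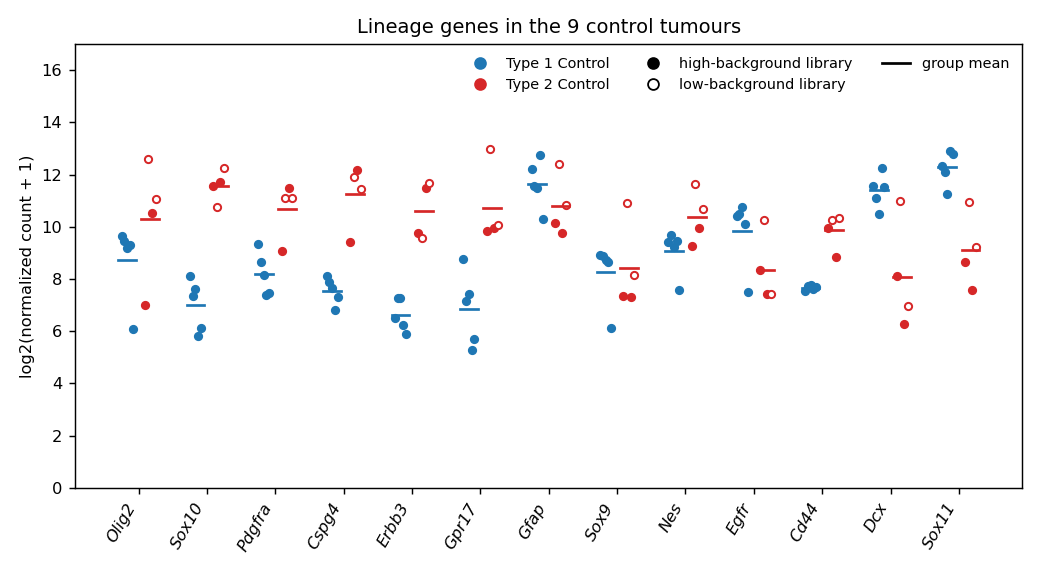
Expression as log2(normalized count + 1) (vertical axis) of lineage genes in each control library, by tumour kind; points are libraries, filled where high-background and open where not, and bars are group means. Sox10 and Cspg4 do not overlap between kinds, whereas Olig2, Sox9, Nes and Egfr do.

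Genes of the mesenchymal glioma state, which is known for adhesion and injury-response genes, were higher in Type 2. Of 19 tested members, 9 passed, all higher, and all 19 lay above 0 with a median of 1.46. Lgals1 (galectin-1) had 243, 108, 105, 161 and 327 normalized counts in Type 1 Control 1 to 5 and 4676, 1218, 1057 and 3574 in Type 2 Control 1 to 4 (3.65, SE 0.51, adjusted p = 0.000676). Cd44, the hyaluronan receptor, had 186, 214, 217, 193 and 206 against 1001, 1229, 464 and 1297 (2.19, SE 0.37, adjusted p = 0.00285). Neither gene overlapped, and Type 1 libraries lay within a narrow range for Cd44.

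Anxa2 (2.94, adjusted p = 0.000208), an annexin of membrane repair, Tagln2 (1.82, adjusted p = 0.00225), S100a11 (2.00, adjusted p = 0.0146) and the transcription factor Runx1 (1.93, adjusted p = 0.00996) completed the 6 members with the smallest p. Within the high-background libraries 5 of the 9 passed and the median was 1.43. Without Type 2 Control 2, 6 passed. These genes are also active in macrophages and vessels, whose marker sums are given further on.

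Matrix genes were higher in Type 2 across most of their lists. Of 124 tested matrix genes, 41 passed, all higher in Type 2, and 107 lay above 0, with a median of 1.22 against -0.23 over all genes. Within the high-background libraries 36 passed higher and 1 lower, with a median of 1.09. Leaving out each library gave 30 to 53 calls, 30 without Type 2 Control 3.

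Basement membrane genes had the highest share of calls of the 60 lists. Of 18, 14 passed, all higher, 15 did not overlap, and the median was 1.94, or 2.22 within the high-background libraries, where 13 passed. Lama4, a laminin chain of vessel basement membranes, had 232, 306, 215, 285 and 211 normalized counts in Type 1 Control 1 to 5 and 1283, 967, 2692 and 1579 in Type 2 Control 1 to 4 (2.61, SE 0.30, adjusted p = 0.00012). Hspg2 (perlecan) had 364, 408, 491, 366 and 789 against 3592, 5516, 8545 and 3298 (3.39, SE 0.48, adjusted p = 0.000751). In both genes the lowest Type 2 library was well above the highest Type 1 library.

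Type IV collagens, which form the network of basement membranes, were among the calls. Col4a1 had 469, 382, 390, 608 and 823 normalized counts in Type 1 Control 1 to 5 and 2431, 2110, 2727 and 3251 in Type 2 Control 1 to 4 (2.34, SE 0.34, adjusted p = 0.00086). Col4a5 (2.29, adjusted p = 0.000932), Col4a6 (2.32, adjusted p = 0.000322) and the linker Nid2 (2.18, adjusted p = 0.000223) also rose. The summed list ran from 4784 to 5967 normalized counts in Type 1 Control and from 19440 to 26714 in Type 2 Control. Without Type 2 Control 3, 9 of the 18 passed.

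Fibrillar collagen and fibroblast matrix genes followed, with 9 of 23 higher, none lower and a median of 1.72. Postn (periostin, 3.04, adjusted p = 0.00119), Col12a1 (2.43, adjusted p = 0.00242), Thbs2 (1.91, adjusted p = 0.00342), the procollagen processing enhancer Pcolce (2.91, adjusted p = 0.00425), Sparc (2.23, adjusted p = 0.00816) and Col3a1 (2.25, adjusted p = 0.00899) had the smallest p. Col3a1, a fibroblast collagen, had 124, 164, 126, 127 and 287 normalized counts in Type 1 Control 1 to 5 and 1255, 588, 593 and 720 in Type 2 Control 1 to 4, without overlap. Its partner Col1a1 just missed the threshold (3.13, adjusted p = 0.0512). Within the high-background libraries 9 of the 23 passed.

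Fn1 (fibronectin) showed a split within Type 2. It had 1147, 1077, 997, 903 and 1176 normalized counts in Type 1 Control 1 to 5 and 3214, 37852, 37606 and 4363 in Type 2 Control 1 to 4 (3.49, SE 0.76, adjusted p = 0.0152). Type 2 Control 2 and 3 were far higher than Type 2 Control 1 and 4, and the call was lost without either of them and within the high-background libraries. Fn1 was chosen after its values were seen.

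Enzymes that fold and crosslink collagen were higher as well, with 6 of 15 past the threshold, none lower and a median of 1.23. Serpinh1 (HSP47), the collagen chaperone, had 187, 145, 98.7, 112 and 274 normalized counts in Type 1 Control 1 to 5 and 3757, 1804, 1566 and 1311 in Type 2 Control 1 to 4 (3.66, SE 0.47, adjusted p = 0.000322). Plod1, a lysyl hydroxylase (2.49, adjusted p = 0.000241), P4ha1, a prolyl hydroxylase (1.90, adjusted p = 0.00285), and the lysyl oxidase Loxl2 (2.86, adjusted p = 0.00799) rose with it. Loxl3 (2.22, adjusted p = 0.0472) was called by a small margin and lost under 14 of the 20 alternatives.

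In the hyaluronan and lectican list 4 of 19 passed, all higher: Acan, Hapln1, Cd44 and Has2, a hyaluronan synthase (2.45, adjusted p = 0.0027). The list median was 0.95, or 0.45 within the high-background libraries. Vcan (versican) did not pass (1.91, adjusted p = 0.0714). Among 24 matrix proteases and inhibitors 5 were higher, led by Adam12 (2.31, adjusted p = 0.00086), the gelatinase Mmp2 (2.82, adjusted p = 0.00381) and Adamts1 (2.07, adjusted p = 0.0069). The other 2, the inhibitors Serpine2 (1.81, adjusted p = 0.0302) and Timp1 (1.39, adjusted p = 0.0472), were lost within the high-background libraries, where 3 passed.

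Of 16 integrins, the cell receptors for these matrices, 4 were higher and none lower (median 1.20). Itga1, of the collagen receptor (2.03, adjusted p = 0.00144), Itgb1, the common beta chain (1.73, adjusted p = 0.0105), Itga4 (1.28, adjusted p = 0.0131) and Itga5, of the fibronectin receptor (1.54, adjusted p = 0.0279), passed. Only Itga1 of these 4 passed within the high-background libraries, with Itga2, another collagen receptor chain (1.87, adjusted p = 0.0415). Without Type 2 Control 1, 7 integrins passed. No glypican or syndecan gene passed by limma (10 tested, median 0.80).

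A smaller share of metabolic than of matrix genes passed. Of 276 tested, 18 were higher and 1 lower in Type 2, beside 2.28% and 0.816% of all genes. The median was -0.06, or -0.50 within the high-background libraries, where 8 were higher and 12 lower. The calls lay in hypoxia response, glycolysis, lipid, polyamine, creatine and glycogen, and retinoid genes.

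Of 16 hypoxia response genes 4 were higher, with a median of 0.87, and the same number passed with each control library left out in turn. Within the high-background libraries 3 passed and the median was 0.87. In the depleted tumours none passed and the list median was -0.29. Vegfa, the vascular growth factor, had 733, 488, 344, 659 and 810 normalized counts in Type 1 Control 1 to 5 and 1852, 1999, 2592 and 2563 in Type 2 Control 1 to 4 (1.94, SE 0.40, adjusted p = 0.0113), without overlap. Ndrg1 (2.86, adjusted p = 0.00148), the mitophagy receptor Bnip3 (1.68, adjusted p = 0.00577) and the histone demethylase Kdm3a (1.17, adjusted p = 0.013) were the others. Car9, another hypoxia gene, did not pass (1.92, adjusted p = 0.196).

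Of 20 glycolysis genes only the glucose transporter Slc2a1 passed (1.43, adjusted p = 0.0409), and this call was lost within the high-background libraries and without any 1 control library other than Type 2 Control 1. Ldha, which makes lactate, was at 0.24. No gene of the tricarboxylic acid cycle (20 tested, median -0.04), of nuclear (24, median -0.34) or mitochondrial (13, median 0.10) oxidative phosphorylation, or of cholesterol synthesis (19, median 0.33) passed by limma. The medians within the high-background libraries were -0.67, -0.97, 0.14 and 0.05, and 5 genes were lower: Cs, Idh3b and Dlst of the tricarboxylic acid cycle and Uqcrfs1 and Atp5a1 of nuclear oxidative phosphorylation.

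Lipid genes held 8 of the calls. In fatty acid synthesis 4 of 15 were higher: Me1, malic enzyme (1.44, adjusted p = 0.00307), the regulator Srebf1 (2.07, adjusted p = 0.00677), Elovl1 (1.33, adjusted p = 0.0111) and the desaturase Scd1. Scd1 had 166, 748, 712, 217 and 126 normalized counts in Type 1 Control 1 to 5 and 1712, 1352, 2142 and 3692 in Type 2 Control 1 to 4 (2.78, SE 0.60, adjusted p = 0.0146), and its call was lost without Type 2 Control 4. Fasn, the fatty acid synthase itself, was at -0.01. Of these 4, only Me1 passed within the high-background libraries.

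In fatty acid oxidation and lipid storage 4 of 20 were higher: the lipid droplet gene Plin3 (2.86, adjusted p = 0.00145), Cpt2 (1.53, adjusted p = 0.0041), Hadh (1.35, adjusted p = 0.0192) and Hadhb (0.90, adjusted p = 0.0214). Of these 4 only Plin3 passed within the high-background libraries, where Fabp5, a fatty acid binding protein, was lower (-2.43, adjusted p = 0.0328), and 2 of the list passed without Type 1 Control 4, Type 2 Control 2 or Type 2 Control 4. Gbe1, of glycogen branching (1.58, adjusted p = 0.0102), Gatm, of creatine synthesis (1.51, adjusted p = 0.0105), and Sat1, of polyamine breakdown (1.44, adjusted p = 0.012), were higher too. Of their list of 17 genes, only 1 was higher and 1 lower within the high-background libraries, where the median was -0.43.

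Retinoid genes went both ways. Crabp1 was lower, whereas the retinoic acid receptor Rarg (2.53, adjusted p = 0.00144) and the retinal reductase Dhrs3 (1.36, adjusted p = 0.0308) were higher, 3 of 15 in all. The Dhrs3 call was lost under 11 of the 20 alternatives. In serine and one-carbon (15 tested, median -0.43), amino acid response and transport (18, median -0.63), pentose phosphate and antioxidant (20, median 0.05) and nucleotide synthesis (20, median -0.24) no gene passed by limma, nor did any of 24 cytosolic ribosomal protein genes (median -0.35). These medians were -0.72, -1.10, -0.52, -0.89 and -1.03 within the high-background libraries, and 4 genes were lower: Mthfd1 of one-carbon metabolism, Slc7a11 and Got1 of the amino acid list and Gmps of nucleotide synthesis.

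**Figure D4:**
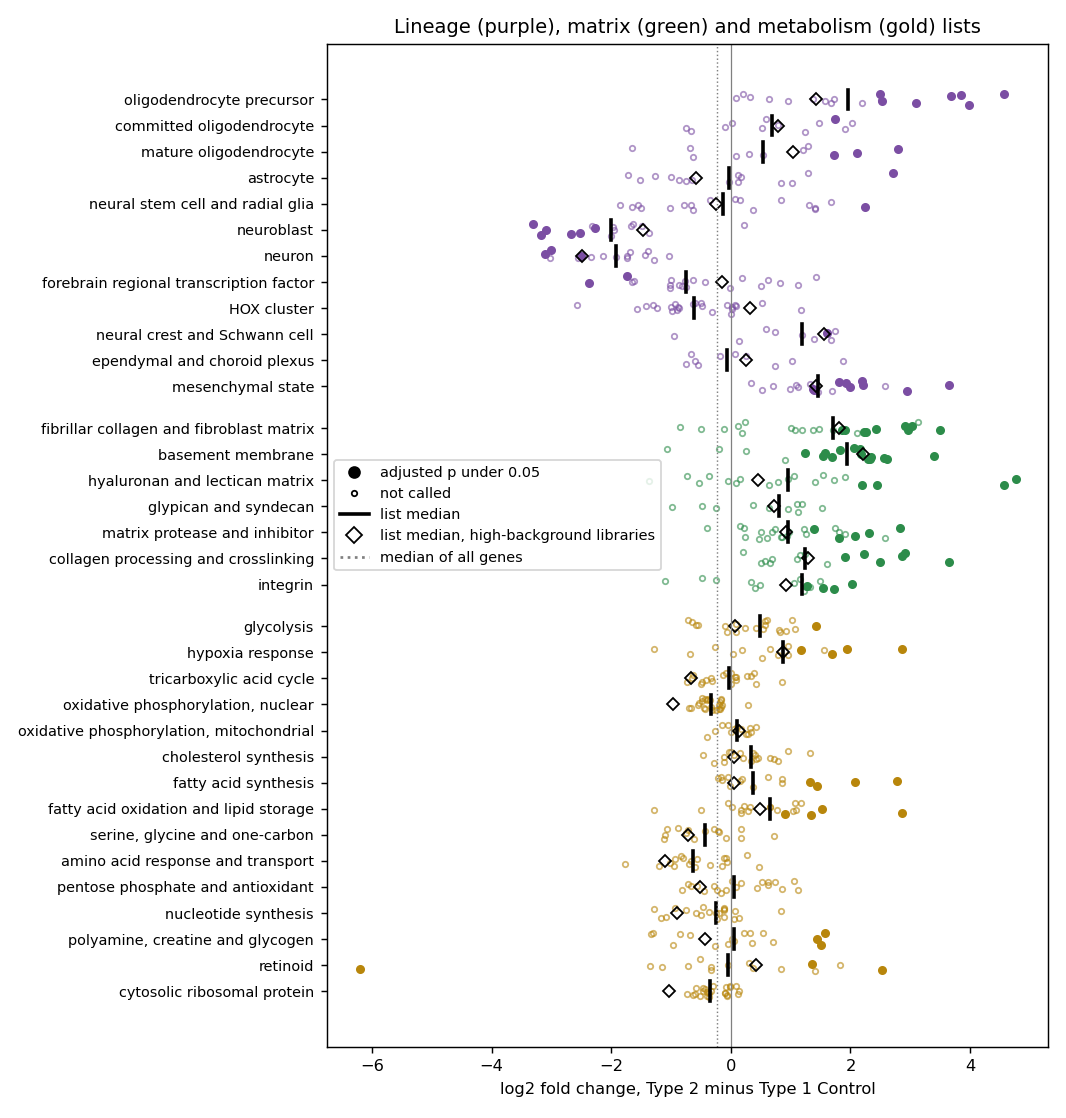
Log2 fold change, Type 2 minus Type 1 Control (horizontal axis), of every tested member of the lineage (purple), matrix (green) and metabolism (gold) lists; filled points have an adjusted p under 0.05, bars are list medians, diamonds are medians within the high-background libraries, and the dotted line is the median of all genes. Matrix calls all lie to the right, with a basement membrane median of 1.94, neuroblast calls to the left with a median of -2.0, and most metabolism members lie near the dotted line at -0.23.

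Growth and signalling genes showed 12 higher and 1 lower of 173 tested, beside 2.28% and 0.816% of all genes. Among glioma drivers Myc, the family member of Mycn, went the other way: it had 122, 123, 112, 133 and 166 normalized counts in Type 1 Control 1 to 5 and 268, 1031, 706 and 814 in Type 2 Control 1 to 4 (2.27, SE 0.43, adjusted p = 0.00677). The lowest Type 2 library, Type 2 Control 1, lay above the highest Type 1 library for Myc. Ccnd3, a D-type cyclin (2.40, adjusted p = 0.00268), and Cdkn2c, an inhibitor of the same kinases (2.32, adjusted p = 0.00442), were both higher. Nf1 (0.68) and Trp53 (0.12) did not pass.

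Of 29 receptor tyrosine kinase genes and ligands 5 were higher: Erbb3, Pdgfra, its ligand Pdgfa (1.47, adjusted p = 0.0342), Hbegf (1.51, adjusted p = 0.024) and Erbb2, the signalling partner of Erbb3 (1.31, adjusted p = 0.0343). Only Erbb3 passed within the high-background libraries and without Type 1 Control 4, Type 2 Control 3 or Type 2 Control 4. In the TGF-beta and BMP list the receptor Tgfbr2 (1.94, adjusted p = 0.000755) passed in all 20 alternatives and the ligand Tgfb1 (1.30, adjusted p = 0.0374) was lost in 12. Fzd7, a Wnt receptor (1.36, adjusted p = 0.0386), was lost in 11, and of 18 p53 targets only Phlda3 was higher (2.51, adjusted p = 0.000525).

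No S phase gene (20 tested, median -0.22), mitosis gene (20, median -0.02) or Notch pathway gene (17, median -0.31) passed by limma, and the medians were -0.80, -0.51 and -0.41 within the high-background libraries. In axon guidance 3 were higher and 1 lower of 28. Besides Sema3d, Plxnb3, a semaphorin receptor of oligodendrocytes (3.15, adjusted p = 0.000193), and Ntn4, a netrin of basement membranes (1.55, adjusted p = 0.00805), were higher, and the ephrin receptor Ephb1 was lower (-1.80, adjusted p = 0.0022).

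Markers of host cells moved with these differences to different degrees. None of 24 macrophage and microglia genes passed by limma, yet all 24 lay above 0 with a median of 1.16, or 0.63 within the high-background libraries. Their summed normalized counts ran from 5312 to 8616 in Type 1 Control and from 8869 to 30876 in Type 2 Control, without overlap and with no member at 0. Csf1r, the receptor on which macrophages depend, had 195, 195, 422, 197 and 254 against 250, 1172, 426 and 940 (1.28, adjusted p = 0.132). Of 10 monocyte genes 2 were higher, Thbs1 (1.86, adjusted p = 0.0117) and Itga4, which matrix and integrin lists also hold. The sum of the 10 ran from 1907 to 2845 in Type 1 Control and from 4756 to 15126 in Type 2 Control. Within the high-background libraries no monocyte gene passed by limma. Of 10 homeostatic microglia genes 1 was higher, Sparc, which the fibroblast matrix list also holds. That list summed to 1786 to 4879 in Type 1 Control and 9037 to 13864 in Type 2 Control, without overlap, and its other 9 genes to 706 to 1578 and 997 to 3034, with overlap. The part of these cells in the matrix and mesenchymal differences was not tested.

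Endothelial markers summed to 2078 to 2436 normalized counts in Type 1 Control and 2567 to 5153 in Type 2 Control (14 genes, median 0.44, 0 passed by limma). Mural cell markers summed to 1470 to 1876 and 1773 to 3847 (11 genes, median 0.48, 0 passed by limma). Every endothelial and mural marker was above 0 in every control library. Their part in the basement membrane difference was not tested.

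Antigen presentation genes were higher in Type 2 with a wide spread. Of 12 MHC class I genes 4 passed, all higher: H2-D1 (3.02, adjusted p = 0.00663), H2-Q4 (2.96, adjusted p = 0.0204), H2-K1 (2.94, adjusted p = 0.0377) and the peptide trimmer Erap1 (1.52, adjusted p = 0.015), and the median was 2.21. The H2 genes are near-identical copies and may share reads. None passed within the high-background libraries, and 1 passed without Type 2 Control 4. None of 7 MHC class II genes passed by limma (median 2.87). Of 30 interferon response genes 1 did, Ddx58 (1.22, adjusted p = 0.0322), beside 3.09% of all genes, and that list had a median of 0.98. Within the high-background libraries no interferon response gene passed by limma and the median was 0.35. Among 15 immediate early genes Ier3 (3.25, adjusted p = 0.000518) and Nr4a1 (2.25, adjusted p = 0.00849) were higher.

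The same difference between kinds was read in the 7 TAM depleted tumours. All 3 Type 1 TAM depleted libraries were low-background, and Type 2 TAM depleted 3 and 4 were high-background. Of the 26463 genes 49 (0.185%) passed, 15 higher (0.0567%) and 34 lower (0.128%). Of the 819 genes of the controls 697 had the same sign and 32 passed in both, 12 higher and 20 lower, 9 of the latter within the chromosome 12 run. No gene passed for a difference between the 2 contrasts by limma, while 2666 had an unadjusted p under 0.05.

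Of the 24 leading genes all 24 had the same sign in depleted tumours and 8 passed. Mycn had 42730, 30619 and 19374 normalized counts in Type 1 TAM depleted 1 to 3 and 108, 103, 99.2 and 465 in Type 2 TAM depleted 1 to 4 (-7.60, adjusted p = 1.90e-05). Ddx1 had 383502, 393070 and 128954 against 1035, 1051, 1109 and 2886 (-7.62, adjusted p = 4.53e-05). Type 2 TAM depleted 4 was the highest Type 2 library for both and remained far below Type 1. Crabp1 (-7.01, adjusted p = 0.00448), Igfbpl1 (-4.54, adjusted p = 0.0192) and Nhlh1 (-6.16, adjusted p = 0.0244) were lower there too. Of the 24 genes of the run 9 passed in the depleted tumours and 15 did not, among them Platr19 (-4.63, adjusted p = 0.199). Only 9 of the 24 did not overlap between kinds there. For Platr19, Type 1 TAM depleted 3 had 16.6 normalized counts, below Type 2 TAM depleted 4 at 103. For Cyria it had 1699, below Type 2 TAM depleted 2 and 4 at 2627 and 2524. The end gene Cyria was at -1.34 (adjusted p = 0.44).

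Gjc3 had 126, 208 and 297 normalized counts in Type 1 TAM depleted 1 to 3 and 1741, 1309, 1373 and 1129 in Type 2 TAM depleted 1 to 4 (2.79, adjusted p = 0.0111). Sema3d had 46.6, 55.7 and 84.2 against 486, 464, 378 and 734 (3.03, adjusted p = 0.00281). Both were without overlap. Sox10, at 108, 238 and 252 against 855, 1351, 351 and 779, did not overlap either but did not pass (2.00, adjusted p = 0.18). Col3a1 (2.88, adjusted p = 0.0246) and Plxnb3 (2.23, adjusted p = 0.0449) passed in both sets.

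The matrix list median was 0.65 in depleted tumours and that of basement membrane genes 0.81. The oligodendrocyte precursor median was 1.67 and that of mature oligodendrocyte genes 2.35. The neuron list had a median of 1.72 there, opposite in sign to the controls, and no member passed. Neat1 (0.10), Serpinh1 (-0.70), Vegfa (-1.05) and Fn1 (0.03), all higher in the controls, did not pass in the depleted tumours.

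**Figure D5:**
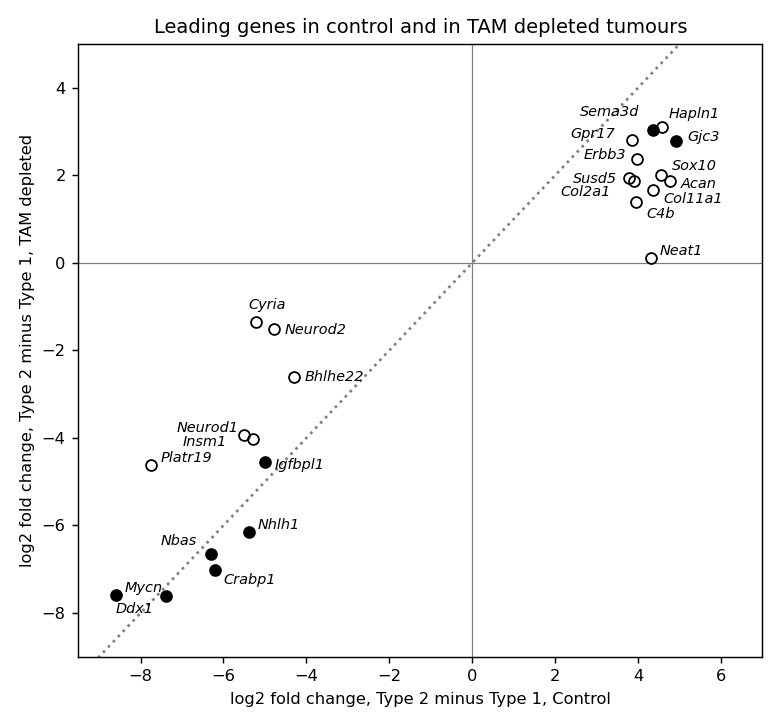
Log2 fold change, Type 2 minus Type 1, of the 24 leading genes in control (horizontal axis) and TAM depleted tumours (vertical axis); filled points passed in the depleted tumours and the dotted line marks equal values. All 24 lie on the same side of 0 in both sets, and 8 are filled.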

How the data were processed

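Bulk RNA of 16 transplanted mouse tumours was turned into libraries by SMART-Seq v4 Ultra Low Input chemistry, which marks neither strand nor molecule, per the labels' protocols. Reads were aligned to GRCm38 with STAR 2.7.8a and processed with DESeq2, per the submitters' processing notes; the annotation and the DESeq2 version are not stated there. The deposited table of all 16 libraries holds log2 values that the authors variance-stabilized, with a shared floor of 3.74; it was taken for linear normalized counts when the tests were planned, and 2 further deposited tables were not used. The values were inverted to normalized counts, 100% of which were whole multiples of 1 read per library (tolerance 0.05 reads), and these gave the reads per library.

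The main test was limma-trend (limma 3.58.1, R 4.3.3) on log2(normalized count + 1) with a mean for each of 4 groups, fitted to all 16 libraries together (12 residual degrees of freedom), 2-sided, for 26463 genes with a normalized count of at least 10 in at least 3 libraries, with Benjamini-Hochberg adjustment over all of them and a threshold of 0.05. Alternatives changed the pseudocount, filter, scaling, tool, libraries and blocks. The contrast of depleted tumours and the difference of both contrasts came from the main fit. The contrast within the high-background libraries came from another fit to all 16 libraries, with the Type 2 groups split by background. Precision is limited by 4 and 5 libraries and, at low counts, by depth: 1 read is worth 3.57 normalized counts in Type 2 Control 1 and 0.556 to 1.80 in the other control libraries. The script was tested on simulated data.

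Positions are from GENCODE vM21 (25514 symbols, 96.4%, matched once). The kinds to compare and the 60 gene lists (1008 genes, 977 tested) were chosen with earlier results of these data known. Leading genes are the 12 with the highest and the 12 with the lowest fold change of those that passed and had a mean of at least 100 in the higher group, no overlap, and the same direction and at least a 2-fold change within the high-background libraries (reads in receptor genes above 1500 per M), without predicted models and receptors; 601 genes met this. Of each list, called members up to the 6 with the smallest p are named, and Olig2, Sox10, Pdgfra, Cspg4, Gfap, Sox9, Nes, Egfr, Cd44, Nf1 and Trp53 always, except that some genes are not reported here; members named without passing, and others outside this rule, were chosen after their values were seen.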

Additional observations from a re-analysis of the deposited data

Results flagged for a closer look

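In 10 of 108 groups of values examined, 1 library stood apart from the rest of its group by Dixon's criterion, which chance alone meets in about 1 of 20. On the log2(normalized count + 1) scale, Gpr17 was highest in Type 2 Control 2 at 12.97, Pdgfra was lowest in Type 2 Control 1 at 9.07, and Nbas was lowest in Type 2 Control 3 at 8.42. Type 1 Control 5 was the lowest of its group for Olig2 (6.08), Sox9 (6.12), Nes (7.59) and Egfr (7.50). In the depleted tumours, Type 2 TAM depleted 4 was the highest of its group for Mycn (8.87) and Ddx1 (11.50), both genes of the chromosome 12 run. Type 1 Control 1 had the most reads of its group at 7.63 M.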

How the results depend on the processing

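With 138 named genes under 20 alternatives each, 2404 values kept their direction and side of the threshold, 343 lost the call and 13 changed sign, all of the last in Sox9 and Trp53, which were not called. For the controls, 819 genes passed in the main fit. Quantile normalization gave 1804 (1079 higher, 725 lower) and limma-voom 2343 (1441 lower). Upper quartile scaling gave 473 lower and the background set as a block 744 lower. The contrast within the high-background libraries gave 358 higher and 659 lower. The cause of these shifts was not tested. Leaving out 1 library gave 510 to 1141 calls, 386 to 913 higher and 124 to 275 lower. For the depleted tumours, where 49 passed, quantile normalization gave 31 (5 higher), the 4 and 3 depleted libraries alone 18 (4 higher, 14 lower), the background block 215 (68 higher, 147 lower), and leaving out 1 library 12 to 234, 4 to 104 higher and 8 to 130 lower, with 12 without Type 1 TAM depleted 1, 15 without 2 and 234 without 3; the cause was not tested.

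The replicate numbers did not pair the samples: same-numbered control libraries had correlations of deviations from -0.33 to 0.29, and 1 of 4 Type 2 libraries correlated best with its own number. A replicate block gave 347 control calls (259 higher, 88 lower) and 16 depleted calls (6 higher, 10 lower), and Sox9 at -0.36 with the pairing.

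Sox9 was at -0.0438 with quantile normalization, -0.52 with the background block, -0.94 in the high-background libraries and -0.66 to 0.55 leaving out 1 library. Trp53 was at -0.019, -0.011 with upper quartile scaling, -0.30, -0.75 and -0.20 to 0.47. The median of all genes moved from -0.23 to -0.35 with upper quartile scaling, -0.04 with quantile normalization and 0.13 with the background block.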

Other observations

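Besides the genes described above, 10 further named coding genes passed in both control and depleted tumours, and they were picked after their values were seen. Lower in Type 2 were P2rx3, an ATP-gated channel (-4.22 in controls, adjusted p = 0.00301; -4.74 in depleted tumours, adjusted p = 0.0221), Edaradd (-2.91 and -4.05), Mdga1, a cell adhesion protein of neurons (-2.20 and -2.37), and Phf21b (-1.93 and -2.47). Higher in Type 2 were Stk32a (2.88 and 3.63), Lims2 (2.93 and 2.65), Capn6 (2.87 and 2.21), Cyp3a13 (2.47 and 2.93), Cpq (1.98 and 1.89) and Slitrk6, a transmembrane protein of neural cells (1.75 and 3.35). All are differences on the log2(normalized count + 1) scale.

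A few further genes that were lower in the control tumours, picked because of their values, are given as single values. Pou3f4, a POU factor of the developing brain, had means of 1195 ± 515 normalized counts in Type 1 Control (SD, n = 5) and 93.5 ± 120 in Type 2 Control (SD, n = 4; -4.24, SE 0.66, adjusted p = 0.00152). Scrt2 (-3.52, adjusted p = 7.04e-05) and Scrt1 (-3.15, adjusted p = 0.00275), zinc finger factors of newborn neurons, and Calb2 (calretinin, -3.47, adjusted p = 0.00513) were lower as well. In the depleted tumours Pou3f4 was at -3.73 and Scrt1 at -0.01.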
